A study of Mus musculus with 56 samples.

Results

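Along 7 regions of the male mouse reproductive tract, levels are described for 7 transcription factor genes of nephric and Wolffian duct development: Pax2, Pax8, Lhx1, Emx2, Gata3, Gata2 and Sall1. The genes were chosen by name for that role, with earlier results of these data known, and all 7 were found among the 53379 genes of the count table. The libraries came from untreated male C57BL/6 mice that aged naturally, 4 mice at 3 months (3M) and 4 at 21 months (21M). From each mouse the testis and the efferent ductules were taken, then the epididymis as initial segment, caput, corpus and cauda, and last the vas deferens, which gave 4 libraries in each of 14 groups and 56 in all. The labels name no transgene or mutation, and each library is total RNA of a whole dissected region. In such bulk tissue, fewer cells of a type and less RNA per cell cannot be told apart. Replicate numbers are not stated to mark a mouse, so libraries were treated as separate samples and p-values measure the spread between them.

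The nephric duct forms in the early embryo and becomes the Wolffian duct, which under androgens gives rise to the epididymis and vas deferens, while the efferent ductules derive from adjoining mesonephric tubules. Pax2 and Pax8 are paired-box factors that set up the nephric lineage, and Gata3 acts after them in the duct, where it maintains the receptor gene Ret. Lhx1 and Emx2 encode homeodomain factors needed for the duct to extend and persist, Gata2 is a zinc-finger paralogue of Gata3 with roles in the urogenital tract, and Sall1 is a zinc-finger factor best known from kidney development. The testis has another origin, the gonadal ridge, and served here as the region outside the duct.

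To show what lies before the start sites, 250 bases upstream are printed for Lhx1, Sall1, Gata2 and Pax8. Lhx1 and Sall1 were highest in the efferent ductules, and Gata2 was highest in the vas deferens. Pax8 was the member with the highest level per length in most duct regions. These 4 are members whose RefSeq start (GRCm38.p6) lay within 1 base of the GENCODE gene start. The windows are chr11:84525535-84525784 on the minus strand for Lhx1, chr8:89044163-89044412 on the minus strand for Sall1, chr6:88193641-88193890 on the plus strand for Gata2 and chr2:24475600-24475849 on the minus strand for Pax8. Each runs 5′ to 3′ on the strand of the gene and ends at the base before the start, and capitals mark matches to the motifs searched.
Lhx1: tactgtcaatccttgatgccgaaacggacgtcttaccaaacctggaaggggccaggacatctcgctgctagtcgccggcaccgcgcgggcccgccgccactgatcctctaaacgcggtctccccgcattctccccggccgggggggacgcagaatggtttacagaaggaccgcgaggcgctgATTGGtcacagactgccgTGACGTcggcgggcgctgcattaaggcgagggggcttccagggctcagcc
Sall1: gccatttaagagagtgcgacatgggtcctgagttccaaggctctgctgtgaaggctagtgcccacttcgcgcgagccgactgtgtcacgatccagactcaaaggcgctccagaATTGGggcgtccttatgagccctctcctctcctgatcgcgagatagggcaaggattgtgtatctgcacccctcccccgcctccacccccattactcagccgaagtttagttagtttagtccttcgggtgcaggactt
Gata2: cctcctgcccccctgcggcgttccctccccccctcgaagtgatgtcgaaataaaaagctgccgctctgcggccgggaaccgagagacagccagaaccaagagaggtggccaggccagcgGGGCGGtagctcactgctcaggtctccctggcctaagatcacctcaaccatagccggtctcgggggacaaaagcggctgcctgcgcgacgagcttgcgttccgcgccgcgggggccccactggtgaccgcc
Pax8: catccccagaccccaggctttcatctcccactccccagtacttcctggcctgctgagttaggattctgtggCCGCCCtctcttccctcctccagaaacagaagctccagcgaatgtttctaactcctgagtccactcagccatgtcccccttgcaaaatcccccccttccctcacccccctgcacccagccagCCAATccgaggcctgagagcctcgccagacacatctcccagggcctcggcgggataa

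On both strands the search covered a GATA element (GATAAG), a homeodomain element (TAATTA), the CCAAT box (CCAAT), the cyclic AMP response element (TGACGTCA) and its core (TGACGT, which overlaps it), the GC box (GGGCGG) and the TATA box (TATAAA). The CCAAT box was matched 68 bases before the Lhx1 start, 137 before Sall1 and 57 before Pax8, on the opposite strand in Lhx1 and Sall1. TGACGT was matched 50 bases before Lhx1, and the GC box 131 bases before Gata2 and 179 before Pax8. Of 32851 RefSeq promoters of the same length, 33.8% held CCAAT, 32.7% GGGCGG, 6.47% TGACGT, 1.55% TGACGTCA, 6.55% GATAAG, 4.84% TAATTA and 12.4% TATAAA. The letters of the GATA, homeodomain, full cyclic AMP and TATA motifs did not occur in the windows of the 7 members. GC content was 64.8% for Lhx1, 56.4% for Sall1, 67.2% for Gata2 and 60.4% for Pax8, against a median of 52.4% over all promoters. The matches are letters in a window and were not tested as sites.

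Library totals ranged from 11125279 to 20561967 counts, and 24560 to 32238 genes had a count in a library. Levels are given as CPM, counts relative to library size after TMM scaling over the 56 libraries, as mean ± SD with n = 4 per group. A few libraries stood apart. In 3M caput library 2, the RNA gene Gm42418 held 49.7% of the counts, against 6.54% to 9.49% in the other 3M caput libraries. The 21M efferent ductules libraries 1 and 4 had the lowest totals of the series, 11442133 and 11125279, and Gm42418 shares of 22.2% and 18.5%. In 3M cauda library 3 the summed epithelial markers were 871 CPM, against 1460 to 1510 in the other 3M cauda libraries, and the summed fibroblast markers 9232 CPM, against 2160 to 2427.

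The 6 duct regions and the testis differed first in the PAX genes. Pax8 (ENSMUSG00000026976, chr2:24420560-24475599, minus strand) averaged 200.5 to 554 CPM in every duct region at 3 months, while the 4 testis libraries held 3 reads together. Its mean was 554 ± 65.8 CPM in the initial segment and 524 ± 9.78 in the corpus, which did not differ beyond their spread (log2 difference 0.08, SE 0.12, adjusted p = 0.686). Below them came the vas deferens with 304 ± 7.19, the caput with 300.0 ± 41.1 and the efferent ductules with 276 ± 4.24 CPM, and the cauda was lowest with 200.5 ± 44.2. Corpus and vas deferens differed (log2 difference 0.70, SE 0.12, adjusted p = 2.2e-05), and so did efferent ductules and cauda (0.50, SE 0.12, adjusted p = 0.00141), whereas the caput libraries overlapped with those of both the vas deferens and the efferent ductules. Against the 3 testis reads, the efferent ductules held 20939, a ratio per library size of 6554 with a 95% counting interval of 2242 to 31785. The 21M testis libraries held 3, 1, 2 and 1 reads.

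Pax2 (ENSMUSG00000004231, chr19:44756045-44837871, plus strand) rose along the epididymis. At 3 months the efferent ductules had a mean of 51.0 ± 1.06 CPM and the initial segment 34.97 ± 6.57. The caput then reached 189 ± 56.9, the corpus 219 ± 31.9 and the cauda 265 ± 70.6 CPM, and the vas deferens had 165 ± 19.6. The testis had 2.18 to 2.71 CPM, 38 to 48 reads a library, so Pax2 was low there but detected in every library. The step from initial segment to caput was 2.51 on the log2 scale (SE 0.18, adjusted p = 3.3e-12), and the order cauda, corpus, caput, vas deferens held no neighbouring pair that differed (adjusted p from 0.376 to 0.642). At 21 months the same step was 2.15 (SE 0.32, adjusted p = 4.1e-06), and the vas deferens then had the highest mean, 292 ± 104 CPM. Its libraries overlapped with those of the corpus, next in order (log2 difference 0.20, SE 0.30, adjusted p = 0.664).

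The paralogues stood in different proportions along the tract. Per kilobase of exon, Pax8 exceeded Pax2 10.4- to 17.9-fold in the 3M initial segment libraries, 4.68- to 4.94-fold in the efferent ductules and 1.16- to 2.57-fold over the caput, corpus and vas deferens libraries of that age. In the cauda the ratio was 0.620 to 0.744, so Pax2 was the higher of the pair in all 4 libraries. Among duct regions at 21 months the initial segment was again highest, with a median of 14.9, and the cauda lowest, with 0.639 and a range of 0.581 to 1.26, while the 21M efferent ductules spread from 3.11 to 8.48 and the 21M vas deferens from 0.763 to 1.60. In the 3M initial segment Pax8 made up 65.3% of the summed level per kilobase of the 7 genes, and in the cauda Pax2 made up 32.5% and Pax8 21.9%.

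**Figure D1:**
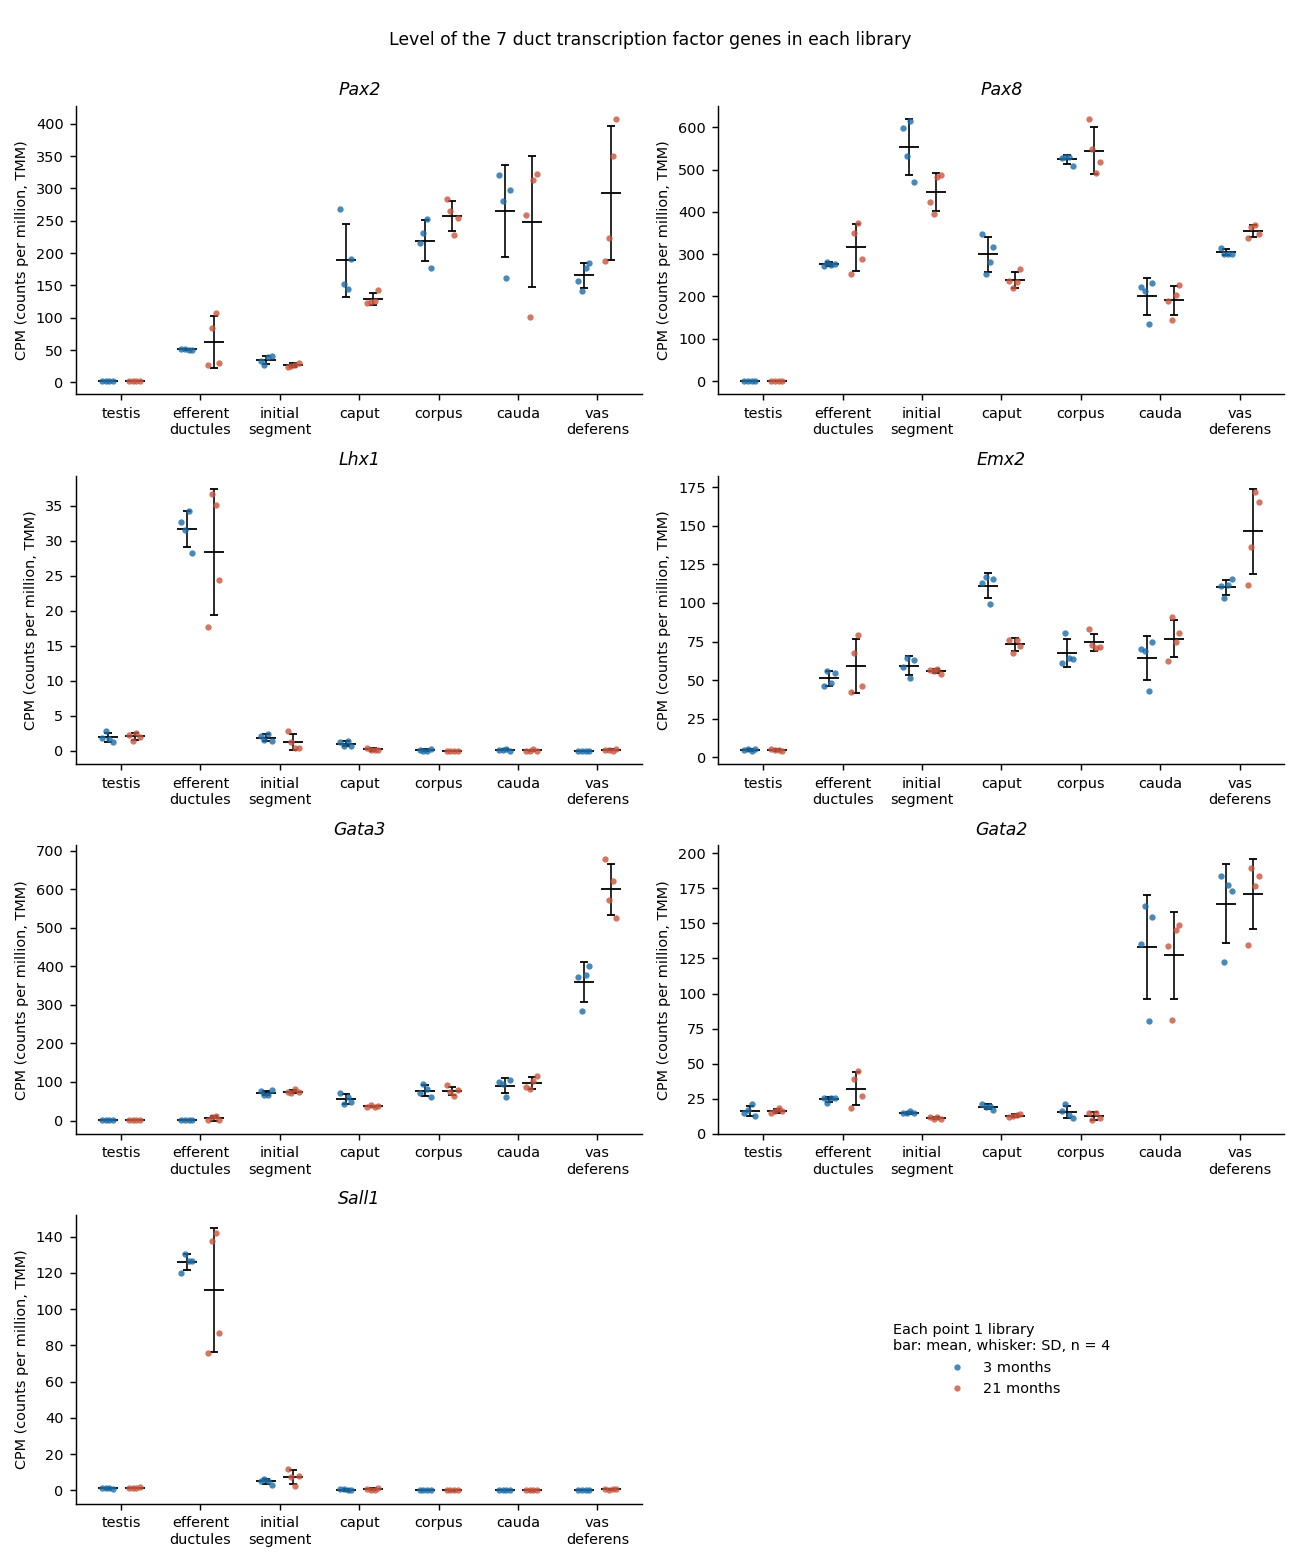
Level of each gene in CPM (vertical axis, linear, own scale per gene) in every library, by region, with 3M libraries in blue and 21M in red. Bars are means and whiskers SD over 4 libraries. Lhx1 and Sall1 average 31.7 and 126 CPM in the 3M efferent ductules and under 7 CPM in every 3M library of the other regions, Gata3 is highest in the vas deferens, and Pax8 is near 0 in the testis alone.

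Lhx1 and Sall1 were the genes of the proximal tract. Lhx1 (ENSMUSG00000018698, chr11:84518284-84525535, minus strand) stood at 32.6, 31.5, 34.3 and 28.2 CPM in the 3M efferent ductules. In the testis it was at 1.24 to 2.77, in the initial segment at 1.36 to 2.35 and in the caput at 0.669 to 1.37 CPM. The 4 corpus libraries held 0 to 3 reads each, the cauda libraries 0 to 3, and the vas deferens libraries 0, where a count of 0 allows up to 3 reads. Sall1 (ENSMUSG00000031665, chr8:89027235-89044162, minus strand) stood at 120, 130, 126 and 127 CPM in the same libraries. Its next region was the initial segment with 2.97 to 6.40 CPM, followed by the testis with 0.941 to 1.47, and the caput, corpus, cauda and vas deferens were all under 1 CPM.

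A gene was called specific to a region when it passed at adjusted p under 0.05 with a mean 4 or more times the average over the remaining 6 regions, after scaling within an age. Lhx1 and Sall1 were called in the efferent ductules at both ages, where 5.46% of all genes were called at 3 months and 5.22% at 21 months. The mean in the efferent ductules was 38.4 times that of the other regions for Lhx1 (adjusted p = 2.4e-21) and 111 times for Sall1 (adjusted p = 7.5e-26) at 3 months, and 50.6 and 61.5 times at 21 months. No library of another region overlapped with those of the efferent ductules for either gene. Lhx1 and Sall1 correlated across the 14 group means with r = 0.959 on the log2(CPM + 1) scale, a description of points that share libraries, depth and mice.

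Emx2 (ENSMUSG00000043969, chr19:59458372-59465357, plus strand) was the most even of the 7 across the duct. At 3 months the means were 51.2 ± 4.91 CPM for efferent ductules, 59.4 ± 5.92 for initial segment, 111 ± 8.18 for caput, 67.5 ± 9.01 for corpus, 64.2 ± 14.3 for cauda and 110 ± 4.95 for vas deferens. Caput and vas deferens did not differ beyond their spread (log2 difference 0.03, SE 0.13, adjusted p = 0.948), and both lay above the other 4 duct regions without overlap. The testis, at 4.20 to 5.44 CPM, was 3.43 below the efferent ductules on the log2 scale (SE 0.15, adjusted p = 1.3e-18). At 21 months the caput had 73.1 ± 4.05 CPM and was no longer apart from the corpus at 74.5 ± 5.67 (log2 difference 0.00, SE 0.14, adjusted p = 1), so the vas deferens alone was highest, with 146 ± 27.7.

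The GATA genes marked the distal end. Gata3 (ENSMUSG00000015619, chr2:9857078-9890034, minus strand) had 1.52 ± 0.288 CPM in the testis and 1.44 ± 0.813 in the efferent ductules, which overlapped. It rose by 5.71 on the log2 scale at the initial segment (SE 0.23, adjusted p = 1.1e-18) to 72.1 ± 5.77 CPM and stayed between 55.9 and 90.3 CPM on average through the cauda, with overlap between neighbours in order of level. The 3M vas deferens libraries stood at 373, 284, 378 and 399.7 CPM, above every 3M library of the other regions. Gata2 (ENSMUSG00000015053, chr6:88193891-88207032, plus strand) had 15.1 to 24.7 CPM on average from testis to corpus. It then rose by 3.03 on the log2 scale at the cauda (SE 0.19, adjusted p = 2.5e-13), to 133 ± 37.0 CPM, and stood at 164 ± 28.2 in the vas deferens.

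Gata2 and Gata3 were called specific to the vas deferens at both ages, beside 3.20% of all genes at 3 months and 3.98% at 21 months. The vas deferens mean was 7.64 times that of the other regions for Gata3 (adjusted p = 2.5e-24) and 4.80 times for Gata2 (adjusted p = 2.9e-19) at 3 months, and 12.4 and 5.06 times at 21 months. Gata2 was high in the cauda as well, where its libraries overlapped with the vas deferens, and the fitted margin at 3 months was 1.37-fold (log2 difference 0.46, SE 0.17, adjusted p = 0.0378). Required to be 4 times above each other region in turn, Gata2 was not called. Pax2, Pax8 and Emx2 were called in no region at either age. In the other regions the share of all genes called was 28.2% for testis, 2.48% for initial segment, 3.42% for caput, 2.70% for corpus and 2.18% for cauda at 3 months, and 27.6%, 4.21%, 1.77%, 2.88% and 1.97% at 21 months.

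Because the GATA genes turned up at different points, their ratio changed along the tract. Per kilobase, Gata3 was 0.0428 to 0.139 of Gata2 in the 3M efferent ductules and 5.64- to 7.21-fold above it in the initial segment. It was 6.09- to 8.31-fold above in the corpus, 0.794 to 1.05 in the cauda and 2.76- to 3.15-fold above in the vas deferens. At 21 months the vas deferens ratio was 3.88 to 6.85, with no overlap with the 3M libraries, and the initial segment ratio 8.10 to 9.93, also without overlap. In the testis, efferent ductules, caput, corpus and cauda the libraries of the ages overlapped. The age difference in this ratio was not tested.

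**Figure D2:**
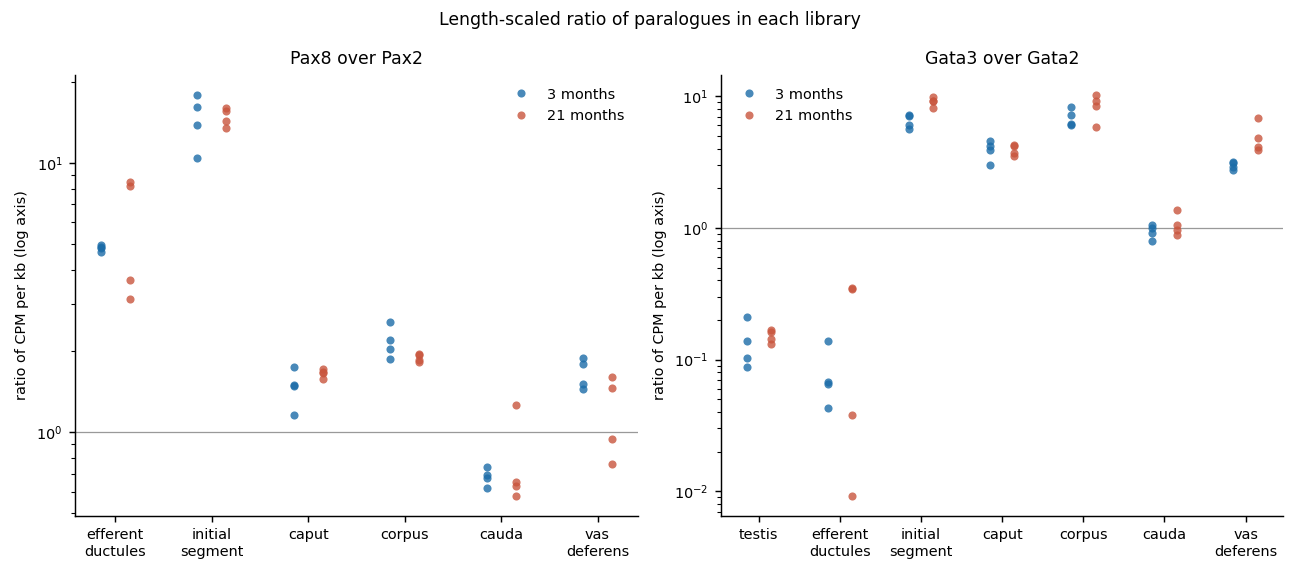
Ratio of Pax8 to Pax2 (left, duct regions) and of Gata3 to Gata2 (right, all regions), each gene in CPM per kilobase of exon, on log axes, with a point for each library at 3 months (blue) and 21 months (red) and a line at 1. The PAX ratio falls from 10.4 to 17.9 in the 3M initial segment to 0.620 to 0.744 in the 3M cauda, and the GATA ratio crosses 1 between efferent ductules and initial segment.

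Between neighbouring regions, 29 changes passed the test at each age over 6 steps and 7 genes. The share of all genes called, from the step between testis and efferent ductules to that between cauda and vas deferens, was 75.6%, 43.4%, 27.8%, 33.5%, 24.4% and 36.4% at 3 months and 74.3%, 44.6%, 29.7%, 32.3%, 26.9% and 35.1% at 21 months, and the count over the 7 genes was not tested against these shares. The step with the fewest genes called at 3 months was that from corpus to cauda, with 24.4%, where Gata2 was higher and Pax8 lower in the cauda (log2 difference -1.46, SE 0.13, adjusted p = 1.9e-10) and the other 5 genes did not pass. In the cauda itself, 3M library 3 had the lowest level of Pax2, Pax8, Emx2, Gata3 and Gata2 among the 3M libraries, at 162, 135, 43.2, 62.2 and 80.5 CPM. This was the library with low epithelial and high fibroblast markers, and the part of that in its levels was not tested.

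Other genes of the duct program, 71 in all, were fixed as a list by role: other transcription factors, paralogues and cofactors of the 7 genes, RET, FGF, WNT and TGF-beta family signals, hormone receptors and the PAX target Cdh16. At 3 months 8 of 71 were specific to the efferent ductules, beside 5.46% of all genes, among them Emx1, the paralogue of Emx2, at 69.8 times the mean of the other regions, Wnt11 at 18.5 times, the oestrogen receptor gene Esr1 at 10.7 times and Wnt9b at 10.7 times. In the initial segment 6 were called, where 2.48% of all genes were, including the ETS factors Etv4 and Etv5, which act downstream of receptor tyrosine kinases, at 54.2 and 25.6 times. In the vas deferens 6 were called, beside 3.20% of all genes, with the paralogue Gata5 at 15.05 times, and Eya1, a transcriptional coactivator, at 18.95 times. The caput had 3 (3.42% of all genes), the corpus 1 (2.70%) and the cauda 2 (2.18%). The testis had 16, where 28.2% of all genes were called. They included Gata4, a factor of gonadal somatic cells, at 105 times, Gata1 at 136 times and Sall4, a germ cell paralogue of Sall1, at 329 times. These values describe paralogues and other list genes, not the members, of which none was called in the testis.

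Age was compared within each region, and 45 of the 49 possible tests could be made. Lhx1 had too few reads in corpus, cauda and vas deferens, and Sall1 in the corpus. In all, 9 tests passed at adjusted p under 0.05, with 6 genes lower in the caput and 3 higher in the vas deferens at 21 months. The fitted differences come from counts scaled within a region and can differ slightly from the ratio of the CPM means, which are scaled over all 56 libraries.

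The caput is the region after the initial segment, where sperm begin to mature. Of the 7 genes tested there, 6 were lower at 21 months, where 5.05% of all genes were lower and 8.14% changed in either direction. Emx2 stood at 113, 117, 99.2 and 116 CPM in the 3M libraries and at 76.1, 67.7, 76.3 and 72.4 in the 21M libraries, without overlap. It fell by 0.67 on the log2 scale (SE 0.11, adjusted p = 0.00411), the smallest adjusted p of the group. Gata3 went from 71.4, 42.2, 61.4 and 48.8 CPM to 36.1, 39.3, 35.8 and 37.1 (log2 difference -0.64, SE 0.12, adjusted p = 0.00896), and its 21M values lay closer together than its 3M values.

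Gata2 went from 21.2, 19.0, 19.7 and 16.9 CPM to 11.7, 12.6, 13.2 and 14.4 (log2 difference -0.63, SE 0.13, adjusted p = 0.0111), also without overlap. Pax2 went from 268, 152, 144 and 191 CPM to 122, 125, 125 and 143 (log2 difference -0.60, SE 0.15, adjusted p = 0.0277), where the 3M libraries reached far above and the lowest of them came within 2 CPM of the highest 21M library. Pax8 went from 348, 254, 281 and 317 CPM to 236, 219, 235 and 265 (log2 difference -0.38, SE 0.10, adjusted p = 0.03295), and here a 21M library lay above the lowest 3M library. Both PAX calls were lost when 3M library 4 or any of the 21M libraries was left out, and Gata2 was lost without 21M library 1 (adjusted p = 0.0543). With all 56 libraries in one edgeR fit, Emx2 and Lhx1 passed in the caput, and Gata2, Gata3, Pax2 and Pax8 did not (adjusted p from 0.0835 to 0.301).

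Lhx1 in the caput was a matter of few reads. The 3M libraries held 22, 5, 25 and 11 reads and the 21M libraries 6, 2, 1 and 1, and the CPM ranges did not overlap (0.669 to 1.37 against 0.0475 to 0.367). Over the groups this was 63 reads against 10, a ratio per library size of 7.54 with a 95% counting interval of 3.84 to 16.5, and the test passed (adjusted p = 0.0116). The call was lost with the libraries of replicate number 2, 3 or 4 left out at both ages (adjusted p from 0.0574 to 0.119). Sall1, the seventh gene, stood at 0 to 0.887 CPM at 3 months and 0.128 to 1.19 at 21 months and did not pass (adjusted p = 0.567).

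Leaving out 3M caput library 2, with its high Gm42418 share, left all 6 caput calls in place. Leaving out library 2 at both ages left Emx2 and Gata3 called, leaving out library 3 left Emx2, and leaving out library 4 left Gata2 and Gata3. Scaled by library size alone, with that library's total as deposited, only Lhx1 passed in the caput, and the median of all caput genes moved to 0.19 on the log2 scale against -0.01 with TMM. Relative to that median, the library-size values were -0.61 for Emx2, -0.65 for Gata3, -0.59 for Gata2, -0.60 for Pax2 and -0.37 for Pax8, near those with TMM. With Gm42418 taken out of the totals as well, Emx2, Gata3, Gata2 and Lhx1 passed.

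Other cell types moved in the same comparison. The 8 epithelial markers (among them Epcam, Cdh1 and Krt8) had no member past the test in the caput and summed to 1089 to 1350 CPM at 3 months and 1257 to 1347 at 21 months. By contrast, 7 of 8 smooth muscle markers were lower, with sums of 1224 to 1610 against 888 to 1023 CPM, and 3 of 6 fibroblast markers, with 721 to 1572 against 493 to 556 CPM. Of 10 T cell markers 5 were higher (5.35 to 7.37 against 12.9 to 19.6 CPM), 2 of 8 macrophage markers were higher, 2 of 8 germ cell markers were lower and 1 of 10 endothelial markers was lower. The Sertoli cell list, which holds Sox9, had 1 of 4 tested genes lower, with sums of 85.2 to 98.9 against 56.7 to 73.7 CPM. Of 4 red blood cell markers 1 was higher (7.36 to 15.1 against 14.7 to 67.2 CPM). In the epithelial, smooth muscle, fibroblast, macrophage and endothelial lists no marker was at 0 in any caput library. Their part in the differences was not tested.

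**Figure D3:**
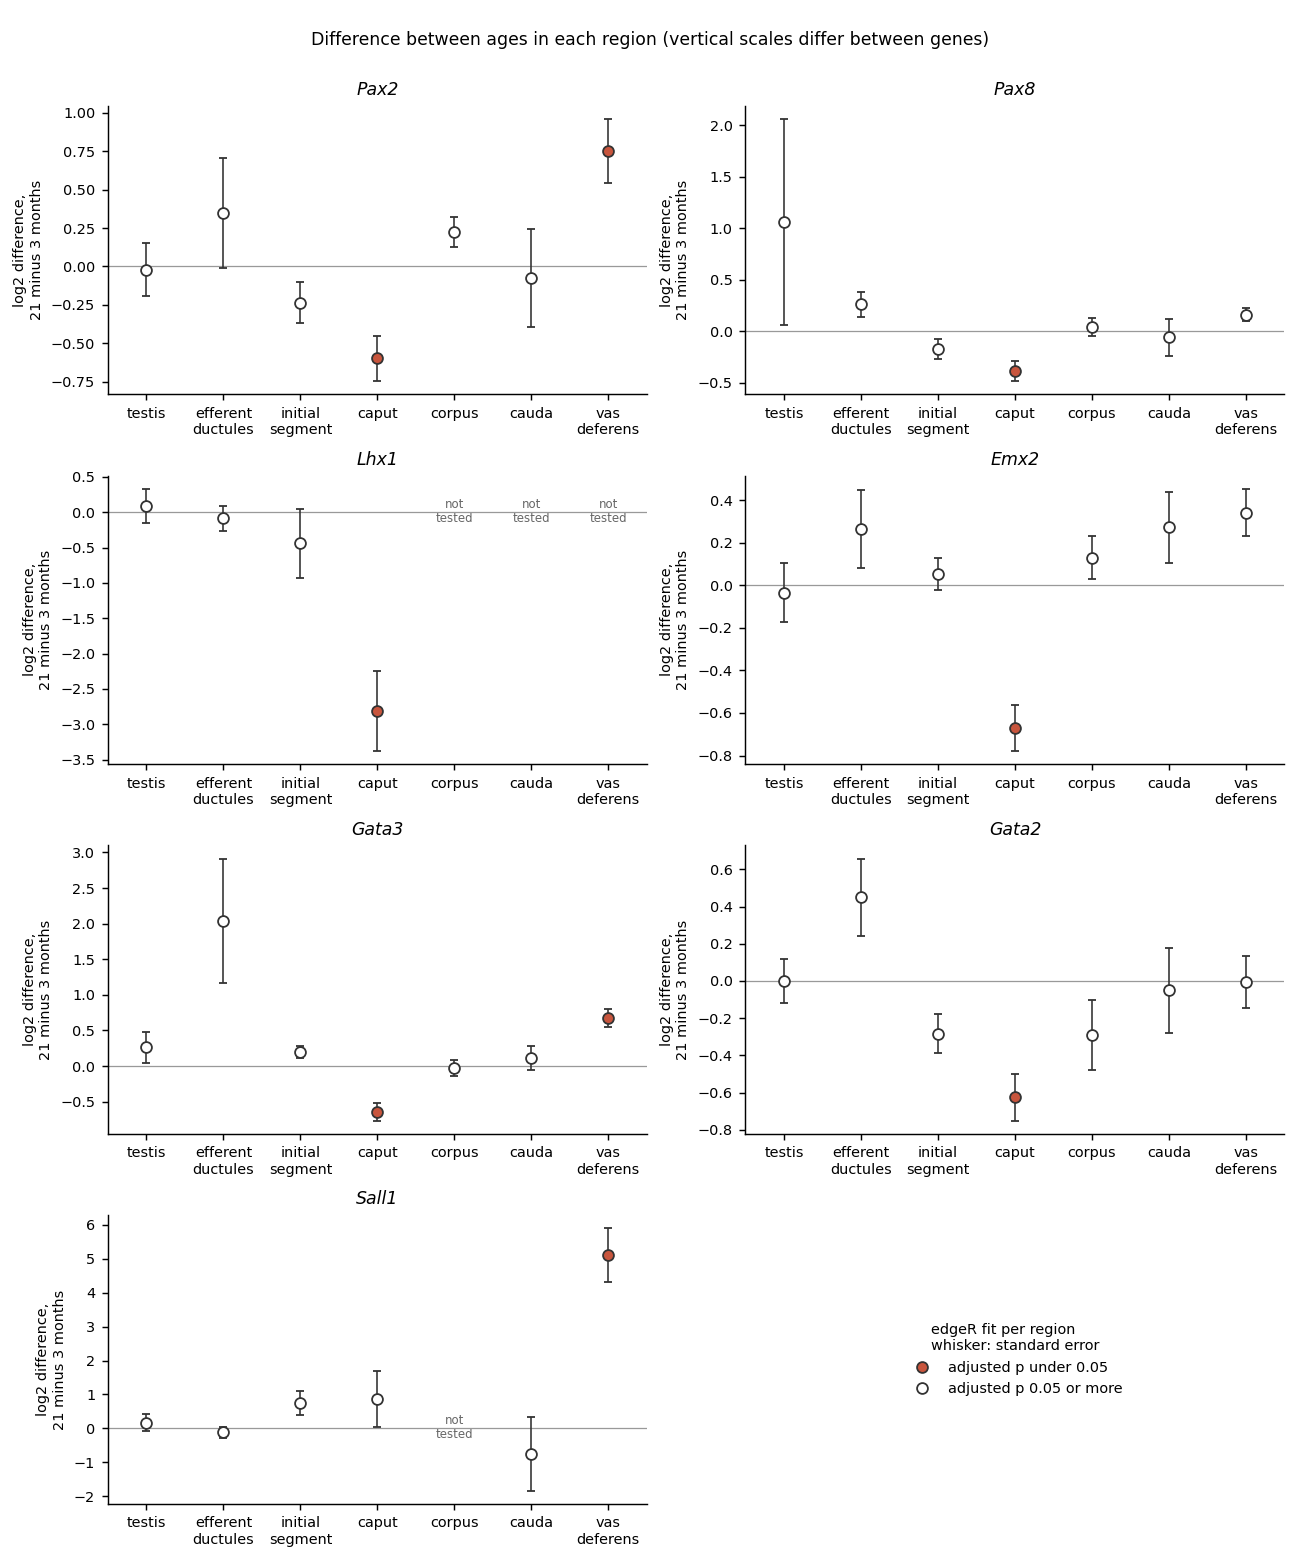
Difference between ages on the log2 scale (21 minus 3 months, vertical axis, own scale per gene) in each region from the edgeR fit of that region, with standard errors as whiskers and filled points where the adjusted p was under 0.05. The 6 filled points in the caput lie below 0 (-0.38 to -2.81) and the 3 in the vas deferens above 0, with 0.68 for Gata3 and 0.75 for Pax2; that of Sall1 rests on 1 read at 3 months.

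In the vas deferens, the muscular duct to the urethra, 3 of 6 genes tested were higher at 21 months, where 11.4% of all genes were higher and 19.9% changed in either direction. Gata3 stood at 679, 571, 622 and 526 CPM in the 21M libraries, above the 284 to 399.7 CPM of the 3M libraries, a log2 difference of 0.68 (SE 0.13, adjusted p = 0.004745). Pax2 stood at 157, 142, 177 and 185 CPM at 3 months and at 188, 224, 350 and 408 at 21 months (log2 difference 0.75, SE 0.21, adjusted p = 0.0279). Its groups were separated by little, and the call was lost when any 3M library or 21M library 3 was left out.

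Sall1 in the vas deferens was at 0, 0, 0 and 1 reads at 3 months and at 16, 7, 13 and 15 reads at 21 months. The ratio per library size was 52.8 with a 95% counting interval of 9.06 to 2127, and the test passed (adjusted p = 0.00201). The call held in each of the 20 alternative runs that tested it. At 21 months its mean of 0.708 ± 0.247 CPM was still under 1% of that in the efferent ductules. Emx2 missed the threshold (log2 difference 0.34, SE 0.11, adjusted p = 0.0539) but passed without 21M library 1. Pax8 also missed it (0.16, SE 0.07, adjusted p = 0.110), although its groups did not overlap. DESeq2 called 5 of the 6 genes in the vas deferens, and 6 of 7 in the caput. Gata2 differed by -0.00 (SE 0.14, adjusted p = 0.991).

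Seminal vesicle secretory genes (Svs2, Svs4, Svs5 and Pate4) were all higher in the 21M vas deferens, with sums of 486, 1929, 836 and 12.1 CPM in libraries 1 to 4 against 1.75 to 3.75 at 3 months. Library 4, with the lowest of these sums, had the highest Pax2 level and the lowest Gata3 level of the 21M group. Sall1 and Gata3 passed with each library left out, but Gata3 did not pass with all 56 libraries in one edgeR fit (adjusted p = 0.12). All 10 T cell markers were higher (8.30 to 12.7 against 28.7 to 77.4 CPM), 5 of 8 smooth muscle markers were higher (12388 to 13118 against 13554 to 21822 CPM), 5 of 6 fibroblast markers lower and 4 of 10 endothelial markers lower. Of 8 epithelial markers 3 were higher and 1 lower, with sums of 1032 to 1206 against 1246 to 1581 CPM. Of 8 macrophage markers 3 were higher (172 to 234 against 180 to 282 CPM), and of 8 mast cell markers 2 were lower (71.5 to 78.3 against 30.3 to 77.2 CPM). The Sertoli cell list summed to 12.2 to 16.4 against 24.1 to 34.7 CPM, where Sox9 was the gene called of 3 tested. In the clear cell, ciliated cell, germ cell and skeletal muscle lists 1 marker each was higher, and in the basal epithelial list 1 was lower. The part of these in the member genes was not tested.

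The efferent ductules gave no call by edgeR with 7 genes tested, where 6.99% of all genes were called, 1 gene had an unadjusted p under 0.05 and DESeq2 called none. The 21M libraries were split. Gata3 had 6, 181, 183 and 2 reads in libraries 1 to 4, so that libraries 2 and 3 were 6.94 and 7.79 times the 3M mean and libraries 1 and 4 were at 0.365 and 0.126 of it. Pax2 had the same split, with 0.540 and 0.596 of the 3M mean in libraries 1 and 4 and 1.66 and 2.10 in libraries 2 and 3. Libraries 1 and 4 were the lower pair for all 7 genes. Library 1 was at 0.557 of the 3M mean for Lhx1 and 0.603 for Sall1, and Pax8 varied least, from 0.916 to 1.35 over the 4 libraries.

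Libraries 1 and 4 are those with the lowest totals and the higher Gm42418 shares. The shares were 22.2% and 18.5% there, against 4.93% in library 2 and 14.9% in library 3. In libraries 1 and 4 the summed epithelial markers were 1.27 and 1.42 times the 3M mean, against 1.03 and 0.998 in libraries 2 and 3. Basal epithelial markers were 0.716 and 0.727 against 0.988 and 0.887. Endothelial markers were 0.781 and 0.698 against 0.986 and 0.906, macrophage markers 1.77 and 1.54 against 1.35 in both, and ciliated cell markers were 1264 to 1394 CPM in all 4. Red blood cell markers were 2.77 and 4.96 times in libraries 1 and 4 against 1.60 and 1.73. The Sertoli cell list, which holds Sox9, was at 0.559 and 0.639 against 1.23 and 1.37. With libraries 1 and 4 left out, Pax2, Pax8, Emx2, Gata2 and Gata3 passed, at higher levels, while 28% of all genes then passed. With libraries 2 and 3 left out instead, Pax2, Lhx1, Gata3 and Sall1 passed, while 27.1% of all genes did. For each of these genes libraries 1 and 4 lay below the 3M mean. As the split was seen in the member genes too, the calls of both runs, chosen after seeing the data, are not independent of the choice of libraries. The part of depth, Gm42418 and these markers in the split was not tested.

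**Figure D4:**
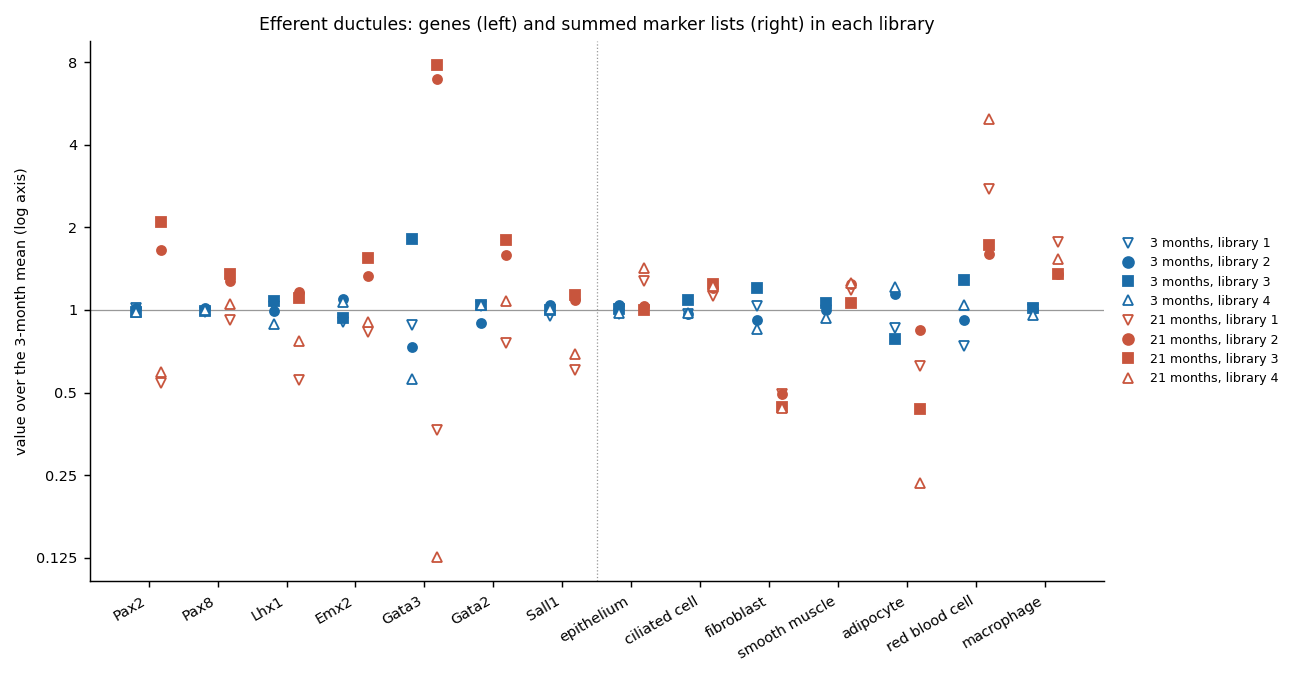
Values in each efferent ductules library over the 3-month mean (vertical log axis, base 2) for the 7 genes (left of the dotted line) and summed CPM of 7 marker lists (right). Blue is 3M, red is 21M, open symbols are libraries 1 and 4 and filled symbols libraries 2 and 3. For the genes the open red symbols lie below the filled red ones throughout, most for Gata3 (0.365 and 0.126 against 6.94 and 7.79), while the ciliated cell and smooth muscle lists lie between 1.06 and 1.25 in the 4 red libraries.

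In the remaining regions no member passed by edgeR. In the initial segment (7 tested, 6.36% of all genes called) 3 genes had an unadjusted p under 0.05, in the corpus (5 tested, 2.97%) 1 gene, and in the testis (7 tested, 0.563%) and cauda (6 tested, 0.128%) none, and DESeq2 called none in these 4 regions. In the initial segment Gata2 did not overlap between ages, with 14.5, 14.95, 16.2 and 14.8 CPM against 12.3, 10.6, 11.97 and 10.2 (log2 difference -0.28, SE 0.11, adjusted p = 0.144). Sall1 in that region stood at 2.97 to 6.40 CPM at 3 months and at 11.97, 7.62, 2.34 and 7.99 at 21 months (log2 difference 0.74, SE 0.34, adjusted p = 0.257). It passed only without 21M library 3, the lowest of the 4.

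Whether the age difference itself varied between regions was tested over all 56 libraries. It did for Emx2 (adjusted p = 0.0037), Gata3 (0.00705), Sall1 (0.0153) and Lhx1 (0.0155) and missed the threshold for Pax8 (0.0553), Pax2 (0.0659) and Gata2 (0.0973), beside 20.2% of all genes. For Emx2 the regional differences ran from -0.67 in the caput to 0.34 in the vas deferens, and for Gata3 from -0.64 in the caput to 2.04 in the efferent ductules, the region with the split libraries. Without the 8 efferent ductules libraries 5 genes passed. Without libraries of replicate number 2, which hold 3M caput library 2, none passed at the adjusted threshold by edgeR, although 6 had an unadjusted p under 0.05, and DESeq2 over all libraries called 7.

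In the caput, 16 of 62 pathway genes tested (25.8%) changed with age, 10 lower and 6 higher, beside the 8.14% of all genes. The median over the 62 was -0.25 on the log2 scale and that over all genes -0.01. Among transcription factors 5 were lower and 2 higher of 20. Nr2f2 (-0.64, adjusted p = 0.00254) and Tfap2b (-0.67, adjusted p = 0.00761) were lower, and Eya1 was higher (2.73, adjusted p = 0.0087). Among WNT genes the feedback target Axin2 (-0.52), Sfrp1 (-0.38) and Wnt7b (-0.64) were lower and Ctnnb1, encoding beta-catenin, higher (0.42). The growth factor gene Tgfb2 was lower as well (-0.76, adjusted p = 0.00379). The paralogues Lhx2 and Sall4 were higher, with caput means under 1 CPM at both ages, Lhx2 at 0.0908 ± 0.0743 against 0.977 ± 0.373 and Sall4 at 0.0137 ± 0.0274 against 0.383 ± 0.128.

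In the vas deferens 18 of 63 (28.6%) changed, 12 higher and 6 lower, beside 19.9% of all genes, with a median of 0.03 against 0.02 over all genes. Ret, the receptor gene that Gata3 maintains in the embryonic duct, was at 12.5 ± 3.57 CPM at 3 months and 35.4 ± 7.44 at 21 months (log2 difference 1.44, SE 0.20, adjusted p = 0.00133), while its coreceptor gene Gfra1 was lower (-1.36, adjusted p = 0.0106). The GATA cofactor Zfpm1 (0.73, adjusted p = 0.00246) and the LIM cofactor Ldb1 (0.34, adjusted p = 0.00894) were higher, as were Sox9 (0.91), Lef1 (0.72) and Wnt4 (0.84), and Wnt9b was lower (-1.26). The paralogue Pax5 went from 0.680 ± 0.414 to 29.7 ± 33.6 CPM, with a spread between the 21M libraries as large as their mean. Picked after their values were seen, Sox9, Tfap2a and Axin2 were lower in the caput and higher in the vas deferens, as were Pax2 and Gata3 among the members, and Ctnnb1 and Tfcp2l1 the reverse. For these list genes the difference between the regions was not tested. In the efferent ductules 3 of 66 passed (4.55%, beside 6.99% of all genes), in the initial segment 8 of 63 (12.7%, beside 6.36%) and in the corpus 5 of 63 (7.94%, beside 2.97%). In the testis 1 of 66 passed (1.52%, beside 0.563%), and in the cauda 0 of 61 by edgeR at the adjusted threshold, beside 0.128%.

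In all, 10 annotated genes overlap a member or start within 5 kb of its start, and the strand setting of the counting is not stated, so reads of overlapping partners cannot be told apart with certainty. Lhx1os starts 125 bases from Lhx1 on the other strand and had 6.17 ± 0.585 CPM in the 3M efferent ductules, with 0 to 0.276 CPM on average elsewhere at 3 months. Its group means correlated with those of Lhx1 at r = 0.962 over 14 points. Emx2os, which overlaps Emx2 by 264 bases, had r = 0.906, and the other 3 pairs compared were Gata3 with 9230102O04Rik (0.894), Pax8 with Gm13415 (0.483) and Gata3 with 4930412O13Rik (0.282). At 3 months Emx2os was highest in the corpus, with 44.2 ± 3.07 CPM, against 11.9 ± 2.25 in the caput, where Emx2 stood at 111.2 ± 8.18 CPM, close to the vas deferens. With age the caput level of Emx2os went to 14.01 ± 1.52 CPM (log2 difference 0.18, SE 0.14, adjusted p = 0.454), while Emx2 fell.

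Gm13415, which runs against Pax8 and overlaps it by 35182 bases, went from 2.55, 11.9, 12.9 and 12.96 CPM to 0.367, 0.257, 0.523 and 0.434 in the caput (log2 difference -4.68, SE 0.52, adjusted p = 0.000463). In the initial segment it went the other way, from 4.00, 4.55, 2.77 and 2.97 CPM to 18.3, 14.6, 20.9 and 18.3 (log2 difference 2.48, SE 0.16, adjusted p = 1.4e-06). Pax8 itself was 554 ± 65.8 and 447.5 ± 44.9 CPM there and did not pass. Both of these calls for Gm13415 held with each library left out. Gm13256, antisense over the RefSeq start of Gata3, was likewise lower in the caput (48 reads against 7 over the groups, adjusted p = 0.0217) and higher in the initial segment (12 against 70 reads, adjusted p = 0.00282) and vas deferens (37 against 188 reads, adjusted p = 0.00599). Its caput call was lost without 3M libraries 3 or 4 or 21M libraries 1, 2 or 4. Over the neighbours, 4 of 9 tested were lower in the caput (5.05% of all genes), 2 of 9 higher in the initial segment (6.36% of all genes in either direction) and 4 of 9 higher in the vas deferens (11.4%). Of these, 1700039E22Rik in the caput was lost in 5 of 6 runs with a library left out, Gm20395 in 4 of 8 in both caput and vas deferens, and Gm13415 in the vas deferens without 3M library 1 or 3. 4930412O13Rik, a protein-coding neighbour of Gata3, went from 9.79 to 16.7 CPM in the vas deferens (log2 difference 0.70, SE 0.14, adjusted p = 0.00635), and its call held in 8 of 8 such runs.

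**Figure D5:**
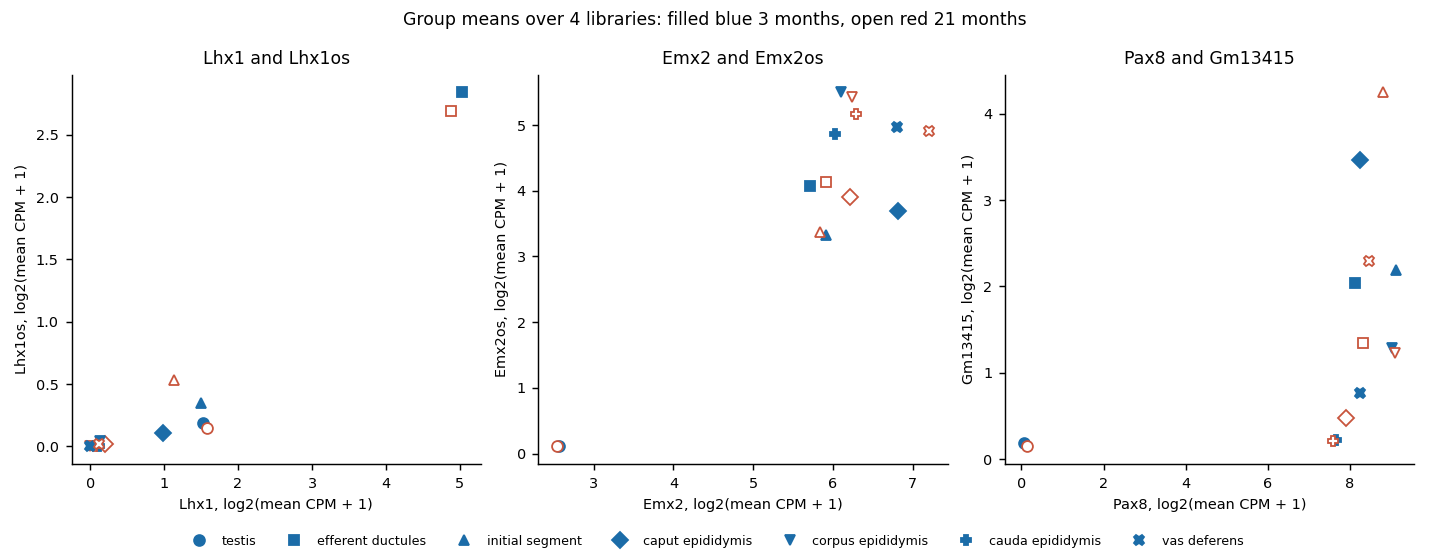
Group means on the log2(CPM + 1) scale of Lhx1 against Lhx1os, Emx2 against Emx2os and Pax8 against Gm13415, with a symbol for each region, filled blue at 3 months and open red at 21 months. Lhx1os is high only where Lhx1 is high, in the efferent ductules (6.17 CPM at 3 months), whereas Gm13415 moves from 10.1 to 0.395 CPM in the caput and from 3.57 to 18.01 CPM in the initial segment, where Pax8 averages 300.0 and 238.5 CPM and 554 and 447.5 CPM.

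Finally, the protein-coding genes most like each member were taken by Pearson's r of log2(CPM + 1) over the 14 group means, among 17147 genes. They were Shmt2, Ppl and Amt for Pax2 (r = 0.979 to 0.988), Pou3f3, Fam120a and R3hdm4 for Pax8 (0.992 to 0.994), and Gm867, Igfn1 and Nr1i2 for Lhx1 (0.985 to 0.991). Copz2, Baz1b and Foxj2 were most like Emx2 (0.974 to 0.977), Ehhadh and Rab27b were among those most like Gata3 (0.9515 and 0.951), Myoc, Ank1 and Sptb were most like Gata2 (0.969 to 0.974) and Fndc7, Cnpy1 and Fbp2 were most like Sall1 (0.994 to 0.996). Among the members themselves, Pax8 and Emx2 had r = 0.937, Pax2 and Emx2 0.917, and Lhx1 and Gata3 -0.719. These values describe patterns over regions and depend on the measure, since 12 of the 21 genes were kept with log2(CPM + 0.1) and 2 with Spearman's rho.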

How the data were processed

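RNA was measured in 7 regions of 4 mice at each age. Paired-end libraries were made with a TruSeq Stranded Total RNA kit, and the submitters' processing notes name cutadapt, HISAT2 and HTSeq with mm10 (GRCm38). Tool versions, HTSeq's strand setting and counting mode, and the annotation release are not given in the sources used here. The authors deposited raw read counts per Ensembl gene, 1 column per library, and symbols came from GENCODE M21 (53274 of 53379 genes).

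Counts were tested with edgeR 4.0.16 (quasi-likelihood, TMM, Benjamini-Hochberg over all genes tested, R 4.3.3), keeping genes with at least 10 counts in total. Age was fitted per region, regions per age, and the age by region interaction over 56 libraries. DESeq2 1.42.0, other scalings, filters and left-out libraries were alternatives, and the fits were tested on simulated data. Count ratios carry 95% exact intervals, which cover counting error only. Tables were made with Python 3.11.15, and promoters came from RefSeq. Named genes were the 7 members, up to 4 pathway genes per role and region by adjusted p, the 3 most similar genes per member, neighbours within 5 kb, and markers. A few genes that this rule names are not reported here. The members and lists were chosen with earlier results of these data known. Among 84 pairs of libraries within groups, 0 were identical.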

Additional observations from a re-analysis of the deposited data

Results flagged for a closer look

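Among 96 groups of 4 libraries, 9 held a library whose gap to the nearest other exceeded Dixon's 95% critical value for its share of the range, and chance gives about 1 in 20 such groups. These were Pax2 in 21M caput library 4 (142.7 CPM, others 122.4 to 125.2), Pax8 in 3M corpus library 4 (509.3, others 528 to 529.8) and Pax8 in 3M vas deferens library 1 (314.8, others 300.2 to 300.9). Emx2 stood apart in 21M corpus library 1 (82.87 CPM, others 70.83 to 72.67) and Gata2 in 3M efferent ductules library 2 (22.1, others 25.47 to 25.69). The other 4 were at a few reads, with Lhx1 at 0.1957 CPM in 21M cauda library 3, and Sall1 at 0.05708 in 3M corpus library 3, 0.04867 in 3M vas deferens library 4 and 0.3913 in 21M cauda library 3.

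The age difference varied between regions for Emx2 (adjusted p = 0.0037), Gata3 (0.00705), Sall1 (0.0153) and Lhx1 (0.0155) by edgeR's interaction test over 56 libraries.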

How the results depend on the processing

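The 4 region-specific calls at each age were made under every alternative run, except that Gata2 was lost when each other region had to be exceeded. Of 9 age calls in single genes, Sall1 in the vas deferens passed in each of the 20 alternatives that tested it. The other 8 were lost under at least 1, and 0 changed sign. The number of age calls among the members, 9, became 5 with all 56 libraries in one fit, 4 with library size only and 14 without the 21M efferent ductules libraries 1 and 4, an alternative added after seeing the data, and ranged from 4 to 10 with a library or replicate number left out. DESeq2 gave 11. Pathway calls, 51, ranged from 15 to 58 with libraries left out, 15, 25 and 30 of them without replicate numbers 3, 2 and 4. Changes between neighbouring regions at 3 months, 29, became 19 with a 2-fold minimum and ranged from 22 to 28 with libraries left out. Members whose age difference varied between regions, 4, became 2 with library size only and 7 with DESeq2, ranged from 0 to 3 with the libraries of a replicate number left out, and were 5 without the 8 efferent ductules libraries. Of the 21 most similar genes, 2 were kept with Spearman's rho and 12 with log2(CPM + 0.1). The causes were not tested.

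Replicate numbers were not taken to pair the libraries. Between regions of one age, same-numbered deviations all correlated over 0.1 in 1 of 21 region pairs at 3 months (corpus and cauda, lowest 0.121, mean 0.163) and 0 of 21 at 21 months, with means of -0.153 to 0.233 and -0.124 to 0.158, the highest for caput and corpus at 3 months. Between ages, which are different mice, the means were -0.0381 to 0.073. With the replicate block, age calls were 8, as Pax8 in the caput was lost (adjusted p = 0.0529), pathway calls 48, region-specific calls 4 at each age, changes between neighbouring regions 30 at 3 months and 29 at 21 months, and interaction calls 4. Depth limits Lhx1 and Sall1 from the caput onwards, where libraries held few reads or 0.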
